A study of Homo sapiens with 19 samples.

Results

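The measurements described here are the RNA over DNA ratios of the promoter barcode, named paBC, for the first of the series' pMYC element sets in K-562, a long-established human leukaemia cell line. Every element of the deposited table whose summed DNA signal was above 0 was kept, which gave 1534 elements of the 3422 different element names over the 8 tables of the series. The assay, QUASARR-seq, reads many reporter plasmids at once, and in each of them 1 DNA element acts on a promoter barcode and on an enhancer barcode. The elements were carried on the plasmid pDEST-QUASARR-luc-gfp with pMYC in the slot for a minimal promoter, and the plasmid library was electroporated into K-562 cells, which were harvested after 6 hours. The 4 libraries were 2 RNA libraries (RNA1 and RNA2) and 2 DNA libraries (DNA1 and DNA2) of the same barcode, all from 1 line with no genetic or drug treatment, so the only contrast within them was RNA against DNA and the groups of interest lay among the elements. Whether the replicates are separate cultures or splits of 1 culture is not stated, so p-values measure only the spread between these libraries.

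A promoter is a stretch of DNA where RNA polymerase starts a transcript, and many human promoters and enhancers start transcripts on both strands. In a barcoded reporter the RNA of a barcode, divided by the DNA of the same barcode, reads how often the element started transcripts that pass through it, corrected for how many plasmids entered the cells. Turning an element around asks whether that activity depends on its direction, and changing single bases asks which positions carry it.

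Of the 1534 elements, 771 were in the fwd and 763 in the rev orientation, and they came from 715 loci, a locus being the name without substitution and orientation. A total of 211 elements at 43 loci carried a base substitution in the name, 190 of a single base and 21 of a dinucleotide, and none of the 211 was in the second set. The other 1323 had no substitution in the name. The DNA libraries held 10880944 and 10701434 reads and the RNA libraries 6617407 and 6916053, with medians of 5534, 5409, 1617 and 1735 reads per element. The depth was thin for a few elements, with 62 under 1000 summed DNA reads and 24 under 100 summed RNA reads. The names open with letter codes whose meaning the labels do not give, so the classes below are called by those codes. Elements named by a number alone are called numbered, and nothing in the labels marks them as controls.

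Element sequences and coordinates were not part of the sources used here, so elements are identified by name. In a name such as KSUAT0022_A212G.fwd, KSUAT is the class, KSUAT0022 the locus, A212G the substitution and fwd the orientation. The labels do not state from which end the substituted position was counted.

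RNA exceeded DNA for most of the elements, and the excess was concentrated in a few classes. On the log2 scale, on which each unit is a factor of 2, 855 elements (55.7% of those tested) had a higher RNA than DNA signal and 395 (25.7%) a lower one at an adjusted p under 0.05 (limma with a variance trend, Benjamini-Hochberg adjustment, 2 RNA against 2 DNA libraries). The median log2 ratio over all elements was 0.38. The zero of this scale rests on the scaling of the deposited signal: the split was 708 higher and 682 lower after centring on the median of all elements, and 1029 higher and 209 lower after centring on the median of the numbered elements, which was -0.25. Without DNA1 the count of lower elements fell to 254 and without DNA2 to 260. The ratios of replicates 1 and 2 followed each other across elements, with Pearson's r = 0.993 over 1534 elements. The median SD of an element's log2 ratio, taken from RNA1 over DNA1 and RNA2 over DNA2, was 0.096 (n = 2).

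The KSSAT and KSUAT elements led the table. All 135 KSSAT elements were higher in RNA, with a median log2 ratio of 3.23 and a range from 0.32 to 5.66. Of 131 KSUAT elements 124 were higher and 3 lower, with a median of 2.48. The 266 elements of both classes held 14.3% of the DNA signal and 46.6% of the RNA signal, and they made up 85 of the 100 elements with the highest ratios. Those 100 elements held 5.70% of the DNA signal and 35.4% of the RNA signal. After centring on all elements 133 KSSAT elements stayed higher and none was lower, and after centring on the numbered elements all 135 were higher.

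A middle range was formed by 4 larger classes. The KUUAE elements, 227 in all, had 200 higher and 10 lower and a median of 1.34. Of 181 KUUUT elements 141 were higher and 12 lower, with a median of 0.88. Of 136 KSUUT elements 89 were higher and 15 lower, with a median of 0.59. Each of these classes spread widely, with KUUAE running from -0.55 for KUUAE0038.rev to 4.29. The KUUAT class (157 elements, 91 higher, 24 lower, median 0.27) lay under the median of all elements, and its balance turned with the zero point: 62 higher and 72 lower after centring on all elements, 122 higher and 14 lower after centring on the numbered ones. All 14 KSSUT elements were higher, with a median of 1.88, as were 6 of 8 KSUAE elements, with a median of 0.49, but only 2 of these 8 were higher and 2 lower after centring on all elements.

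The 3 classes whose names open with KNG lay at the low end. Of their 477 elements 307 were lower and 26 higher in RNA, and no element exceeded a log2 ratio of 0.71. The medians were -0.39 for KNGAE, -0.37 for KNGAT and -0.30 for KNGUT. After centring on all elements 443 of the 477 were lower and 2 higher, and after centring on the numbered elements 171 were lower and 104 higher, so more were lower than higher under each zero point. The 54 numbered elements had 15 higher and 24 lower, and their own balance turned to 20 higher and 11 lower when their median was made the zero.

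**Figure D1:**
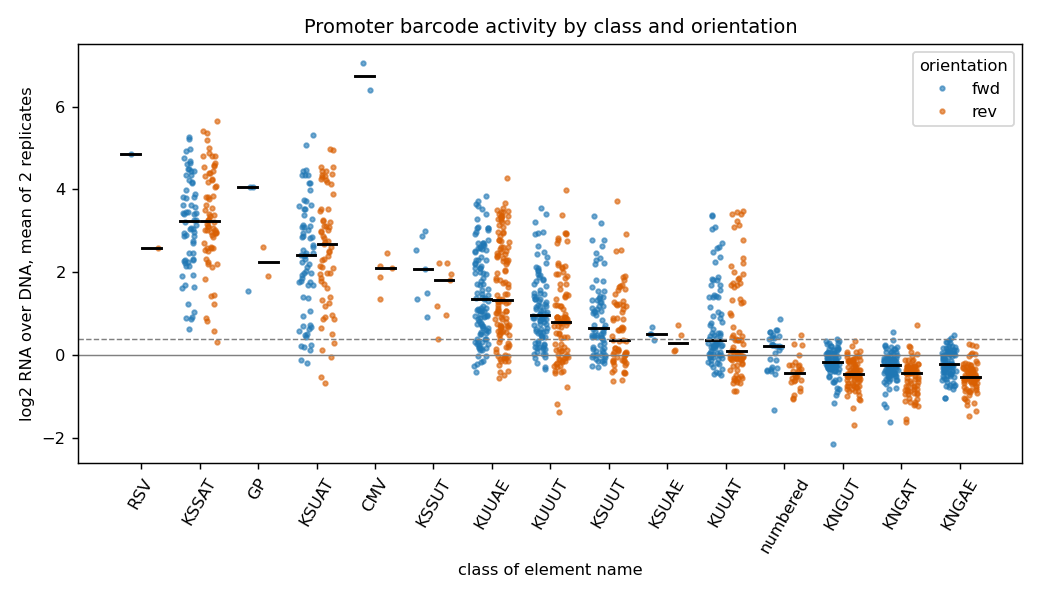
Each point is 1 element, its height the log2 ratio of RNA over DNA (mean of 2 replicates), placed by class of name, with fwd in blue and rev in orange; black bars are medians, the solid line is 0 and the dashed line is the median of all elements, 0.38. KSSAT runs from 0.32 to 5.66, and the KNG classes sit mostly below 0, with lower medians in rev than in fwd.

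The substituted elements were among the active ones. Of 211, 191 were higher and 8 lower, with a median log2 ratio of 1.99, against 664 higher and 387 lower of 1323 unsubstituted elements and a median of 0.19. The substituted elements were not spread evenly over the classes, with 83 in KUUAE and 50 in KUUUT. Without them the median of KUUAE was 0.94 and that of KSSUT 1.36, while that of KSUAT was 2.67. How the loci for substitution were chosen is not given in the labels.

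Names that follow no K code or number took some of the highest places. CMV584 and RSV carry the names of viral promoters used in expression plasmids, and GP0002 and GP0024 carry a code the labels do not explain. The highest element of the table was CMV584_GG543TT.fwd, with a DNA signal of 42.7 and 44.2 and an RNA signal of 5402 and 6175 in replicates 1 and 2. Its log2 ratio was 7.05 ± 0.10 (SD, n = 2; limma adjusted p = 1.14e-09). The other fwd version, CMV584_CC526AA.fwd, came second, with a DNA signal of 87.9 and 86.0, an RNA signal of 6848 and 7931 and a log2 ratio of 6.41 ± 0.17 (SD, n = 2). In both elements each RNA library lay far above each DNA library.

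The 5 rev versions of CMV584 stood much lower. They ran from 1.35 ± 0.07 for CMV584_GG559TT.rev to 2.45 ± 0.02 for CMV584_GG546TT.rev (SD, n = 2), with 1.89 for CMV584_C523A.rev, 2.09 for CMV584_G550T.rev and 2.14 for CMV584_GG563TT.rev between them. No CMV584 substitution was measured in both orientations, so here direction and substitution cannot be told apart. RSV, which has no substitution, was measured both ways, at 4.85 ± 0.03 in fwd and 2.59 ± 0.14 in rev (SD, n = 2). GP0002_G326T stood at 4.06 in fwd and 2.60 in rev and GP0002_A323G.fwd at 4.05, while GP0024_G247T had the higher value in rev, 1.91 against 1.55.

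Among the K classes, the highest locus was KSSAT0004. KSSAT0004.rev had a DNA signal of 232.0 and 225.3 and an RNA signal of 12400 and 10819, which gave a log2 ratio of 5.66 ± 0.11 (SD, n = 2; limma adjusted p = 1.14e-09). KSSAT0010.rev followed at 5.41, KSSAT0024.rev at 5.37, KSUAT0092.fwd at 5.32 and KSSAT0076.fwd at 5.27. KSSAT0040.fwd stood at 5.22, KSSAT0045.rev at 5.20 and KSUAT0058.fwd at 5.07. The SDs of these 8 elements lay between 0.06 and 0.16 (n = 2). KSSAT0004.rev lay above KSSAT0010.rev in both replicates, as did KSSAT0010.rev above KSSAT0024.rev (5.49 and 5.33 against 5.43 and 5.30). From KSSAT0010.rev to KSSAT0045.rev the gap between neighbours was smaller than their SDs. The ratios of the 2 replicates differed by a median of 0.106 over all elements, however. An element's SD includes this shared shift, so it is not the spread of a gap between elements. The gaps were not tested. The highest elements of the next classes were KUUAE0037.rev at 4.29, KUUUT0020.rev at 3.99, KSUUT0021_C367A.rev at 3.73 and KUUAT0015.rev at 3.47.

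The lowest called elements were mostly KNG elements in rev. KNGUT0012.rev had a DNA signal of 160.5 and 156.1 and an RNA signal of 52.4 and 46.3, a log2 ratio of -1.68 ± 0.10 (SD, n = 2; limma adjusted p = 5.84e-07). KNGAT0088.rev stood at -1.56, KNGAE0155.rev at -1.48, KNGAE0055.rev at -1.36 and KNGUT0041.rev at -1.29. Every replicate of these 5 elements lay below -1. KNGUT0019.fwd had the lowest ratio of all, -2.15, but it rested on 13 RNA reads in both libraries together and its SD was 1.00. KNGAT0113.fwd and KNGAT0026.rev, both at -1.61, had 147 and 46 RNA reads and SDs of 0.68 and 0.58, and the numbered element 54128.fwd, at -1.32, had 62 RNA reads and an SD of 0.50. Of the 10 lowest loci 1 was there with a substituted element, KUUUT0102_G280A.rev at -1.39 ± 0.10 (SD, n = 2), while 211 of all 1534 elements were substituted.

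Turning an element around changed its ratio for most of the pairs. The same element was measured in both orientations in 716 pairs, of which 363 (50.7%) had the higher ratio in fwd and 162 (22.6%) in rev (limma on the difference of log2 ratios, adjusted p under 0.05). The median of fwd minus rev was 0.22 and 477 pairs were positive. When the median of all pairs was made the zero, 214 were higher in fwd and 236 in rev. At a log2 difference of at least 1 the calls were 44 in fwd and 42 in rev. The ratios of the 2 orientations had r = 0.904 over 716 pairs, as a description over elements that share libraries.

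The shift towards fwd was seen in the weak and middle classes, but not in KSSAT, KSUAT and KUUAE. Of 227 KNG pairs 134 were higher in fwd and 13 in rev, with a median of 0.36, and of 22 numbered pairs 15 were higher in fwd and none in rev, with a median of 0.55. The calls ran 35 in fwd and 13 in rev for KSUUT, 40 and 13 for KUUUT and 38 and 18 for KUUAT, with medians of 0.22, 0.17 and 0.17. In KSSAT and KSUAT the calls ran 51 in fwd and 61 in rev of 125 pairs, with a median of -0.18, and in KUUAE 42 and 41 of 104 pairs, with a median of 0.04. The median absolute difference was 0.83 in KSUAT, 0.63 in the numbered pairs and 0.60 in KSSAT, against 0.37 in KUUAE and between 0.37 and 0.42 in the KNG classes. After centring on the median of all pairs the numbered pairs still had 10 called in fwd and none in rev, and KSSAT 17 in fwd and 36 in rev. KNGAE then had 28 in fwd and 16 in rev, KNGAT 18 and 11 and KNGUT 23 and 10. The middle classes no longer leaned to fwd, with 18 and 20 in KSUUT, 26 and 25 in KUUUT and 23 and 28 in KUUAT. KUUAE had 25 in fwd and 52 in rev, and KSUAT 21 and 35.

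The DNA signal moved with orientation as well. Over all pairs the median DNA signal of fwd minus rev was -0.22 and the median RNA signal 0.00 on the log2 scale. In the KNG classes the DNA difference was -0.13 and the RNA difference 0.19, and in the numbered pairs 0.24 and 0.69. The part of the DNA difference in the shift of the ratio was not tested. In the second pMYC set, over the 507 pairs it shares, the median promoter barcode difference was 0.12, against 0.25 here over the same pairs. For the enhancer barcode of the same plasmids it was -0.05 over 715 pairs, with 290 positive.

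**Figure D2:**
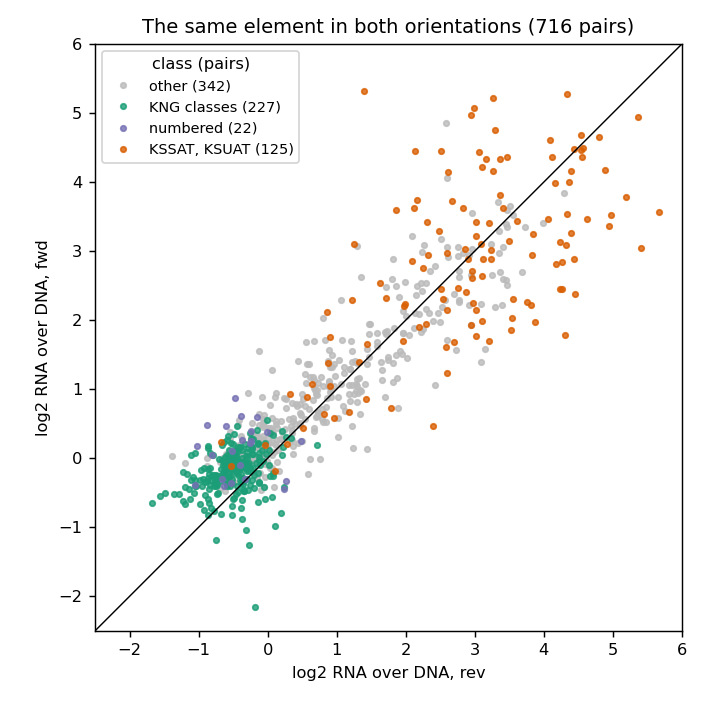
Each of the 716 points is 1 element, with the log2 ratio of its rev form on the horizontal axis and of its fwd form on the vertical axis (means of 2 replicates), coloured by class; the line marks equal values. KNG and numbered elements crowd above the line near the lower left, and KSSAT and KSUAT elements scatter widely to both sides of it.

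Large differences between orientations were frequent in KSSAT and KSUAT, which gave 49 of the 86 called pairs that differed by at least 1. KSUAT0092 was the most directional pair. In fwd it had a DNA signal of 69.8 and 65.1 and an RNA signal of 2872 and 2518, and in rev a DNA signal of 39.4 and 44.6 and an RNA signal of 121.1 and 99.98. The log2 ratio was 5.32 in fwd and 1.39 in rev, a difference of 3.93 ± 0.26 (SD, n = 2; limma adjusted p = 1.11e-06). The DNA signals of both directions lay within a factor of 2 of each other, and the RNA signals of fwd lay far above those of rev. KSUAT0015 followed with a difference of 2.31 ± 0.04 (4.45 against 2.14), RSV with 2.26 ± 0.17 and KSUAT0058 with 2.08 ± 0.03 (5.07 against 2.98; SD, n = 2 each). KSSAT0014 differed by 2.04, KSSAT0040 by 1.95, KSSAT0104 by 1.94 and KSUAT0079 by 1.85.

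In the other direction, KSUAT0020 was higher in rev. Its fwd form had a DNA signal of 180.3 and 176.3 and an RNA signal of 631.2 and 595.9, and its rev form a DNA signal of 40.0 and 42.8 and an RNA signal of 892.6 and 748.1. The difference was -2.52 ± 0.21 (SD, n = 2; limma adjusted p = 1.4e-06), and the RNA libraries were higher in rev although the DNA libraries were lower. KSSAT0010 had a difference of -2.36, KSSAT0004 of -2.10, KSUAT0023 of -2.07, KSUAT0014 of -1.93, KSUAT0016 of -1.90 and KSSAT0051 of -1.81. KNGUT0019, at -1.97 ± 1.09 (SD, n = 2; limma adjusted p = 0.0174), rested on the 13 RNA reads of its fwd form and was the only pair among these 16 that lost its call at an adjusted p under 0.01.

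The weaker direction of the 16 most directional pairs was usually well above DNA too. Of the 716 pairs, 344 were higher in RNA in both orientations, 102 lower in both, and 33 were higher in 1 and lower in the other. Of those 33, 32 had the higher call in fwd. The exception was KUUAE0100_G25A, at -0.23 in fwd and 0.58 in rev. KSUAT0014, at 0.47 in fwd and 2.40 in rev, was the only one of those 16 pairs, besides KNGUT0019, with a member under 1.

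The large differences had the same sign in the second set. It held 53 of the 86 pairs that differed by at least 1, and all 53 had the same sign there: the difference of KSUAT0015 was 2.12, that of KSUAT0058 was 2.34, that of RSV was 2.41, that of KSSAT0004 was -2.52 and that of KSUAT0023 was -1.95. For the enhancer barcode 75 of the 86 pairs had the same sign. KSUAT0092 differed by 1.59 there and KSSAT0004 by -3.49. Over all 507 pairs shared with the second set the differences had r = 0.791, and over 715 pairs those of the promoter and enhancer barcodes had r = 0.463. The share of pairs with the same sign over all shared pairs is not given here, so the excess in the large pairs cannot be read from these counts.

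Only 25 of the 211 substituted elements had their unsubstituted form, called wild type here, in the same orientation. They came from 8 loci and share 13 wild types, so they are not independent. Of the 25, 14 (56%) were lower than their wild type and 3 (12%) higher (limma on the difference of log2 ratios, adjusted p under 0.05), with a median difference of -0.26. At an absolute difference of at least 1 the counts were 5 lower and 0 higher, and without DNA1 the higher calls went from 3 to 1.

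Among the 8 loci with a wild type, KSUAT0022 had 4 substitutions between named positions 209 and 214, and each was lower than wild type in every orientation measured. The wild type in fwd stood at 3.62 ± 0.08, and A209C stood at 2.21 ± 0.04, A212G at 1.94 ± 0.04, T213C at 2.23 ± 0.16 and G214A at 2.40 ± 0.08 (SD, n = 2 each). The differences were -1.41, -1.68, -1.39 and -1.22, with limma adjusted p from 1.38e-07 to 4.4e-07. No replicate of a substituted version reached a replicate of the wild type. The wild type had 27468 summed DNA reads and the substituted versions between 4176 and 30961.

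The same locus in rev gave smaller falls. The wild type stood at 2.83 ± 0.16, and the differences were -0.85 ± 0.04 for A209C, -0.54 ± 0.03 for A212G and -0.84 ± 0.03 for T213C (SD, n = 2 each). The order of the substitutions thus differed: A212G had the lowest ratio in fwd and the highest of the 3 in rev. The effect in fwd minus that in rev was -1.14 ± 0.01 for A212G, -0.57 ± 0.00093 for A209C and -0.55 ± 0.11 for T213C (SD, n = 2), all called by limma. For the enhancer barcode the differences from wild type were -0.85, -0.77, -0.76 and -0.87 in fwd and -0.88, -0.62 and -0.86 in rev, in the same order of substitutions.

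At locus KUUAE0129 in fwd, 1 of 4 substitutions stood apart. The wild type was at 2.36 ± 0.14 and A73G at 0.70 ± 0.09, a difference of -1.66 ± 0.05 (SD, n = 2; limma adjusted p = 0.000251). A206G was lower by a small amount, with a difference of -0.26 (limma adjusted p = 0.0025). TG174GT and T213C, at -0.07 each, did not pass the test. A73G had 1726 summed DNA reads against 12152 of the wild type, and for the enhancer barcode its difference was -2.08.

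KUUAE0071 had a substitution whose direction of change depended on the orientation. T12C in fwd stood at 1.06 ± 0.003 against 1.87 ± 0.15 for the wild type, a difference of -0.81 ± 0.14, and in rev at 2.43 against 2.25, a difference of 0.17 (SD, n = 2; limma adjusted p = 0.00735 and 0.00335). T12C.fwd had 1532 summed DNA reads and its call was lost without DNA1 and without DNA2, at differences of -0.82 and -0.80, and the call in rev was lost without DNA1, at 0.15. T7A was higher in fwd by 0.22 and differed by -0.07 in rev, which did not pass. The enhancer barcode gave 0.36 for T12C in fwd and -0.01 in rev.

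The other substitutions with a wild type moved the ratio by less than 0.5. At KUUAE0118 in rev, CC154AA was lower by a difference of -0.32 and G60C by -0.28, while C151A, at -0.13, did not pass. KUUAE0051_T223A.fwd (-0.31), KUUAE0083_G66T.rev (-0.18) and KNGAT0016_C119T.fwd (0.15) passed at adjusted p between 0.0209 and 0.038 (limma), and each of the 3 lost the call at an adjusted p under 0.01. KUUAE0051_T223A.fwd also lost it without either DNA library, at -0.27 and -0.36. KUUAE0083_G66T.rev lost it likewise, at -0.20 and -0.15, and KNGAT0016_C119T.fwd without DNA1, at 0.13. KNGUT0054_C152T.fwd differed by 0.49 ± 0.55 (SD, n = 2), the widest spread of the 25, and was not called.

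Only 8 substitutions had a wild type in both orientations, and the effect differed between orientations for 7 of them, being lower in fwd for 5 (62.5%) and higher in fwd for 2 (25%). The KSUAT0022 effects share their wild types, and so do the KUUAE0071 effects, so the 8 are not independent. Besides the KSUAT0022 values above, KUUAE0071_T12C gave -0.98 ± 0.14 for the effect in fwd minus that in rev and KUUAE0071_T7A 0.29 ± 0.10. For KUUAE0051_T223A it was -0.34 ± 0.20 and for KNGAT0016_C119T 0.21 ± 0.19 (SD, n = 2 each). KUUAE0083_G66T, at 0.05 ± 0.28, was not called. The variance behind these calls was pooled over 8 effects only, and without DNA1 or without DNA2 no effect was called higher in fwd, without RNA1 1 was, and without DNA2 3 were called lower.

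The other 186 substituted elements had no wild type in the same orientation. To describe them, each form of a locus, here called a version, was set against the mean of the other versions of that locus in the same orientation wherever at least 3 were measured. This gave 165 versions in 43 groups from 27 loci, 6 of them wild types. Of the 165, 59 (35.8%) were higher and 47 (28.5%) lower than the other versions (limma, adjusted p under 0.05). These differences sum to 0 within a group, so 1 low version makes its neighbours high and 1 high version makes them low. The counts therefore say only that versions differed: without DNA1 they were 33 and 30 and without DNA2 29 and 30. Within a group the versions spanned a median of 0.64 log2 units, from 0.07 to 1.99, and in 29 of the 43 groups the version farthest from the others was the lowest.

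**Figure D3:**
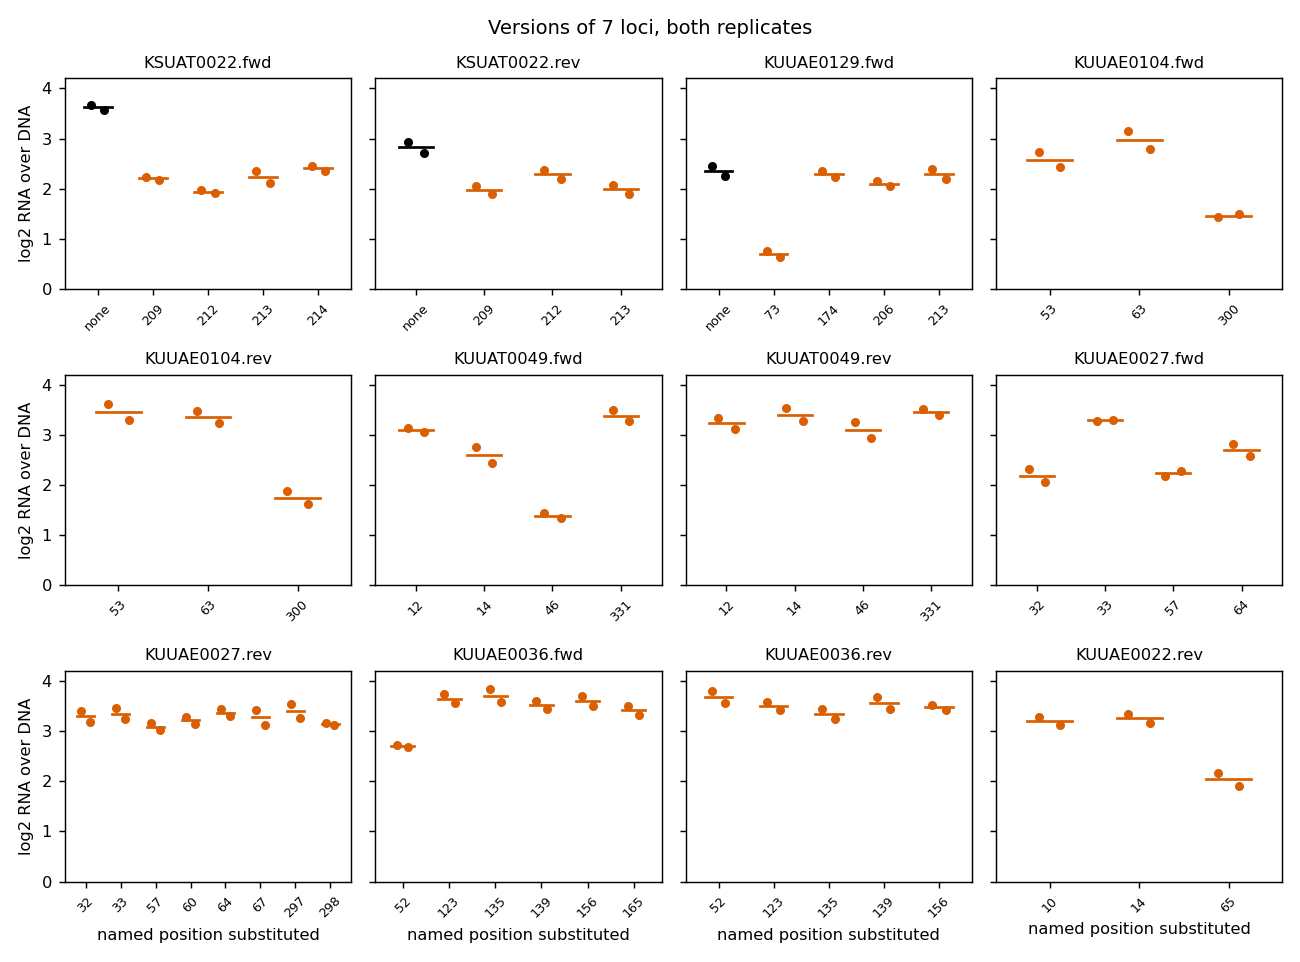
Log2 ratios of RNA over DNA for the versions of 7 loci in 12 panels, 1 panel per locus and orientation; each point is a replicate and each bar the mean of 2, with the wild type in black and substituted versions in orange, ordered by the named position. All substituted versions of KSUAT0022 lie below its wild type. A single version lies well below its neighbours in KUUAE0129.fwd, KUUAE0104 in both orientations, KUUAT0049.fwd, KUUAE0036.fwd and KUUAE0022.rev. In KUUAE0027.fwd, G32A at 2.19 and CA57AC at 2.23 both lie below C64A and G33C.

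At KUUAE0104 the same substitution, C300A, was lower than the other versions in both orientations. In rev C300A stood at 1.75 ± 0.18, with C53G at 3.46 and G63A at 3.35, and in fwd C300A stood at 1.46 ± 0.03, with C53G at 2.58 and G63A at 2.98 (SD, n = 2). C300A minus the other 2 versions was -1.66 ± 0.01 in rev and -1.31 ± 0.27 in fwd (SD, n = 2; limma adjusted p = 1.11e-06 and 7.86e-05). The replicates of C300A did not overlap those of the other versions in either direction. The enhancer barcode gave differences of -1.68 in rev and -2.26 in fwd. C300A had 3649 and 4491 summed DNA reads.

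Other low versions were much lower in 1 orientation than in the other. KUUAT0049_G46C stood at 1.39 ± 0.07 in fwd (SD, n = 2), where the other 3 versions lay between 2.60 and 3.39, a difference of -1.64, but at 3.10 in rev, where the other versions lay between 3.23 and 3.45, a difference of -0.27 that was also called. KUUUT0110_G18T stood at 1.93 in fwd, with a difference of -1.002, and at 2.95 in rev, with a difference of 0.11. KUUAE0036_C52G stood at 2.70 in fwd, with a difference of -0.87, and at 3.68 in rev, with a difference of 0.21. Their fwd forms had 1687, 695 and 1051 summed DNA reads. These differences between orientations were not tested.

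For KUUUT0102 the low form was the rev one, with G280A at -1.39 in rev (difference -1.22) and 0.03 in fwd (difference 0.21). KUUAE0022_G65A.rev stood at 2.04 ± 0.19, with the other 2 versions at 3.21 and 3.25 (difference -1.19; SD, n = 2), and its fwd form was not analysed here. KUUUT0130_A192G.rev, with a difference of -1.22, rested on 75 summed DNA and 11 summed RNA reads, and its fwd form, with 4058 DNA reads, differed by -0.13. A difference of at least 1 was called lower for 8 versions and higher for 2.

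Of the 48 versions whose groups existed in both orientations, 4 were called lower in both, 7 higher in both and 13 in opposite directions, 17 were called in 1 orientation and 7 in neither. Over all 165 versions 28.5% were called lower and 35.8% higher, so some calls fall together in both orientations without any relation between them. Whether the counts differ from that was not tested. The 4 lower in both were KUUAE0104_C300A, KUUAT0049_G46C, KSUAT0022_A209C and KSUAT0022_T213C. At KSUAT0022 the wild type, with differences of 1.42 in fwd and 0.74 in rev, enters the mean of the other versions. There T213C lay within the range of the other versions in both orientations, and A209C did so in fwd. Among those in opposite directions, KUUAE0151_G149C differed by -0.56 in fwd and 0.41 in rev, and KUUUT0063_T232C by 0.41 in fwd and -0.38 in rev. Across the 165 versions, the 40 that differed by at least 0.5 had a median of 3122 summed DNA reads and the other 125 a median of 6735. The part of depth in these differences was not tested.

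The 5 loci with the most substitutions held both narrow and wide groups of versions. KUUAE0027 in rev had 8 versions between 3.09 and 3.41, and its 4 versions in fwd lay between 2.19 and 3.29, with G33C the highest at 3.29 ± 0.0038 and C64A next at 2.70 ± 0.18 (SD, n = 2). KUUAE0036 in rev had 5 versions between 3.34 and 3.68, and in fwd all but C52G lay between 3.41 and 3.71. The SDs of single versions in these 2 rev groups ran from 0.04 to 0.21 (n = 2), but they are not the spread of a difference between versions. By that difference KUUAE0036 in rev had GG135TT called lower at -0.21 ± 0.005 and C52G called higher at 0.21 ± 0.05 (SD, n = 2, limma). No version of KUUAE0027 in rev was called. KSSAT0056 in rev had C33T at 4.99, C43A at 4.81, C57T at 4.80 and G47A at 4.59, and in fwd GG77TT at 3.90, T293A at 3.81 and G288A at 3.06, the last with a difference of -0.80. KUUUT0130 lay between 0.88 and 1.19 apart from the thinly covered A192G.rev. CMV584 in rev, described above, had GG559TT lower than the other 4 versions by a difference of -0.80.

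The same plasmids gave an enhancer barcode value for each of the 165 versions. Of the 21 versions lower by at least 0.5 with the promoter barcode, 7 were lower by at least 0.5 with the enhancer barcode, and of the 19 higher by at least 0.5, 8 were. Over 1533 elements the enhancer barcode ratios were compressed, with a slope of 0.55 on the promoter barcode ratios. A cut of 0.5 is therefore not alike for both barcodes. The share of all 165 versions past that cut with the enhancer barcode is not given here. KUUAE0104_C300A and KUUAE0129_A73G were the clearest cases of a fall with both. KUUAT0049_G46C.fwd (-0.18), KUUUT0102_G280A.rev (0.33) and KUUAE0022_G65A.rev (0.10) had no fall of that size with the enhancer barcode. Over the 165 versions the 2 differences had r = 0.629, as a description: both come from the same cells and plasmids.

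**Figure D4:**
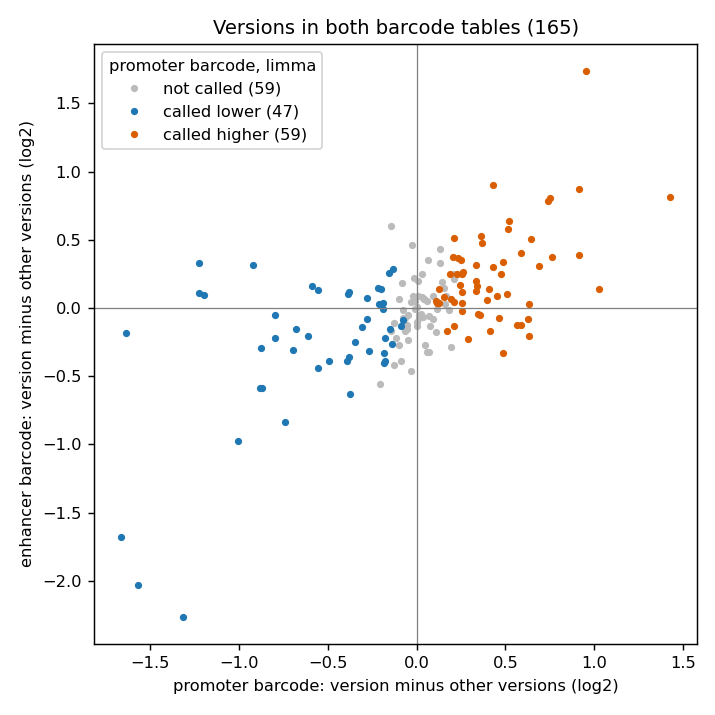
Each of the 165 points is a version of a locus, with its log2 difference from the other versions of that locus with the promoter barcode on the horizontal axis and with the enhancer barcode on the vertical axis (means of 2 replicates), coloured by the limma call for the promoter barcode. The points at the lower left, KUUAE0104_C300A in both orientations and KUUAE0129_A73G.fwd, fall below -1 on both axes, while others at the left lie near 0 on the vertical axis.

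The unsubstituted elements could be set against the second pMYC set, read with the same barcode. It shared 1145 elements, with Pearson's r = 0.968 and Spearman's rho = 0.941 across elements, given as a description since elements share libraries. The ratios were compressed there, with a slope of 0.84 of set 2 on set 1, and the median of KSSAT was 3.16 in the first set and 2.57 in the second over 109 shared elements. The KNG classes had r of 0.807, 0.673 and 0.702 for KNGAE, KNGAT and KNGUT, against 0.942 for KSSAT. With the enhancer barcode of the first set r was 0.854 over 1533 elements.

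A few elements changed rank between the sets. KSUAT0147.fwd stood at 1.76 ± 0.03 in the first set and -0.19 ± 0.61 in the second (SD, n = 2), where it had 216 summed DNA reads. KUUAT0124.fwd stood at -0.05 in the first set and -2.06 in the second, with 186 DNA reads there. KNGAT0063.rev went the other way, from -1.22 ± 0.01 to -0.03 ± 0.03 (SD, n = 2), with 1022 and 1258 summed DNA reads, and so did KUUUT0002.rev, from 0.00 to 0.81, and KNGAT0029.rev, from -0.21 to 0.42. The first 2 shifts thus rested on few reads in the second set, as did the fall of KUUAT0056.fwd, from 0.27 to -0.47 with 81 DNA reads there. Falls with more reads there were KUUUT0045.rev, from 0.14 to -0.66 with 8572, and KUUAE0038.fwd, from 0.38 to -0.39 with 4398. The rises named above had between 1258 and 1773 summed DNA reads in the second set.

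**Figure D5:**
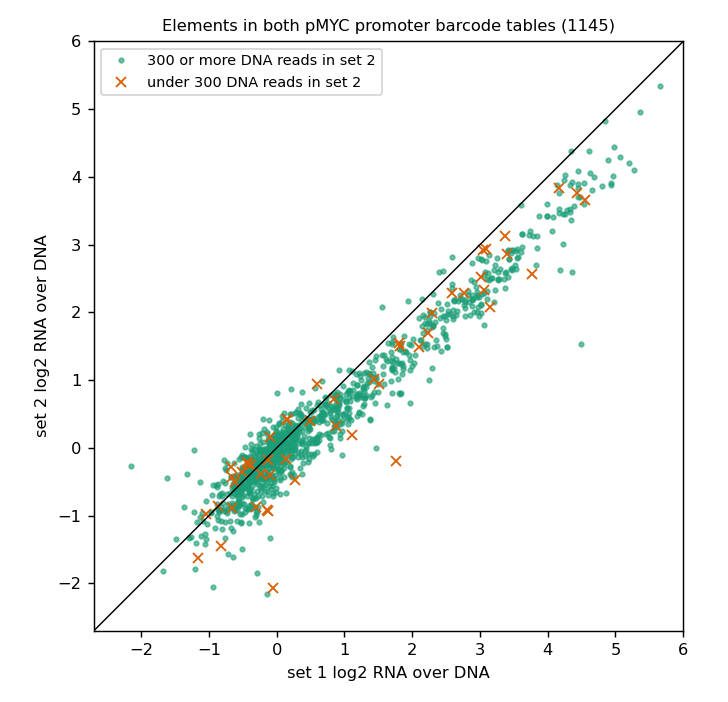
Log2 ratio of RNA over DNA for the 1145 elements in both pMYC promoter barcode tables, set 1 on the horizontal and set 2 on the vertical axis (means of 2 replicates each); the line marks equal values and crosses mark the 50 elements with under 300 summed DNA reads in set 2. Most strong elements lie below the line, as the slope of 0.84 gives.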

How the data were processed

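The 4 libraries are the paBC RNA and DNA libraries of the first pMYC set, 2 of each. Per the file headers, the authors deposited a signal per element and library, together with a log2 fold change and p-values. Per the submitters' processing notes, fastp, edgeR and limma were used, with no versions given. The scaling of the signal is not given in the sources used here. Every signal was a whole multiple of 1 value per library (within 0.02 reads), and these multiples were taken as reads for depth and for the small offset of 0.5 reads added before log2. The reads carry no molecular identifiers, so they are not independent molecules.

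Differences of log2 signal were fitted with limma 3.58.1 in R 4.3.3 (variance trend, Benjamini-Hochberg adjustment over all elements, pairs or versions of a comparison, call at an adjusted p under 0.05), with n = 2 RNA and 2 DNA libraries. Orientation, substitution and version differences were formed within each library first and RNA was then compared with DNA. The elements' log2 values differed from the authors' deposited log2 fold change by at most 0.026. The authors' deposited p-values called 857 elements higher and 398 lower of 1528 tested. A test on counts was not run.

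On simulated data the fit recovered 99.5% of 200 elements changed by at least 0.5, with 2% false among the calls, and 100% of 37 changed versions, with 9.4% false among the calls. For substitution by orientation it recovered 100% of 4 changed effects, with 20% false among 5 calls. The simulation gave DNA and RNA the same noise beyond counting and changed 200 of 1534 elements. In the real libraries the median absolute log2 difference between replicates was 0.023 for DNA and 0.078 for RNA. There 855 elements were called higher and 395 lower. The simulated shares of false calls therefore do not measure the error of the real calls. The replicates differed by more than counting noise (chi-square per degree of freedom 1.77 for DNA and 8.13 for RNA).

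Named elements are the 10 highest and 10 lowest loci, the extremes of each class of at least 10, all names without a K code or number, the 8 largest orientation differences each way, the called substitutions, the 5 loci with the most substitutions, and the largest rank shifts against set 2. Loci named for their versions were chosen after their values were seen. Members and lists were chosen with earlier results of these data known. The version comparison was added after it was seen that few substituted elements had a wild type.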

Additional observations from a re-analysis of the deposited data

Results flagged for a closer look

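For 7 of the 8 substitutions that had a wild type in both orientations, the effect on the promoter barcode differed between fwd and rev by a test of the difference itself (limma on the effect in fwd minus that in rev, 2 RNA and 2 DNA libraries, adjusted over the 8). Effects at the same locus share its wild types, so the 8 are not independent. At KSUAT0022 the values were -1.14 for A212G, -0.57 for A209C and -0.55 for T213C, and at KUUAE0071 they were -0.98 for T12C and 0.29 for T7A. KUUAE0051_T223A gave -0.34 and KNGAT0016_C119T 0.21. The adjusted p was 3.91e-08 for A212G, 2.78e-09 for A209C, 0.000193 for T213C and 3.4e-05 for T12C, and between 0.0295 and 0.0311 for the other 3 (limma). Those 3 lost their calls at an adjusted p under 0.01, without DNA1 and without DNA2, T223A and C119T also without RNA1, and C119T also with no variance trend. On simulated data this fit made 5 calls for 4 changed effects, 20% false among the calls. T213C lost its call without DNA2, at -0.50. A212G was called under every alternative of this fit, and A209C and T12C under all but the threshold of an absolute log2 of at least 1.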

How the results depend on the processing

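Under the alternatives run, the direction and the call held for 3074 of 3248 named values, 156 were no longer called, 16 were called only there and 2 turned direction: KSSAT0142.rev went to -0.0597 after centring on all elements and KNGAT0016.fwd to 0.00043 after centring on the numbered ones. The calls that moved most were those that a fold threshold or another zero point touches. At an absolute log2 of at least 1 the activity fit kept 32 lower elements, orientation 44 pairs higher in fwd and 42 in rev, substitution 5 lower and 0 higher, substitution by orientation 1 lower and 0 higher, and the version fit 8 lower and 2 higher. Centring gave 682 lower elements on the median of all and 209 on that of the numbered ones, and 214 pairs higher in fwd on the median of pairs. An adjusted p under 0.01 left 0 substitution effects higher in fwd, and no variance trend left 1.

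Leaving out 1 library at a time, the elements lower ranged from 254 to 509, substituted elements higher from 1 to 4, effects higher in fwd from 0 to 2 and lower in fwd from 3 to 5, versions higher from 29 to 67 and versions lower from 30 to 48. With the replicate number as a block the counts were 843 higher and 391 lower elements, 364 and 169 pairs, 2 higher and 12 lower substitutions, 1 higher and 4 lower effects by orientation (KUUAE0071_T7A and KUUAE0051_T223A were not called), and 61 higher and 50 lower versions. RNA and DNA libraries of 1 number did not deviate together (r = -0.022 over elements), so the fits did not take the numbers as pairs. The SDs given with n = 2 do rest on that pairing, RNA1 with DNA1 and RNA2 with DNA2. A very small SD can come from the pairing and is not a measure of precision. For KUUAE0071_T12C.fwd the SD of the log2 ratio was 0.003 and the standard error of the limma fit 0.096.

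Without substituted elements the class medians moved to 1.36 for KSSUT, 2.67 for KSUAT, 0.44 for KSUUT, 0.94 for KUUAE, 0.23 for KUUAT and 0.79 for KUUUT. That of all elements moved to 0.19, and the substituted elements left out had a median of 1.99. The causes of the changes under the alternatives were not tested. How many barcodes stood behind each element is not given in the sources used here, and the SDs cover the 2 replicates only.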
